A study of Rattus norvegicus with 9 samples.

Results

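The 10 genes examined here belong to glycolysis and lactate formation and were measured in dendrites cut from cultured rat hippocampal neurons: Pfkp, Aldoa, Aldoc, Gapdh, Pgk1, Pgam1, Eno1, Eno2, Ldha and Ldhb. They were read by all probe sets that name 1 of these 10 genes and no other in the platform's gene table, which gave 14 of the 31099 probe sets. Of these, 11 were ordinary probe sets and measured 9 genes, while Gapdh was named alone by 3 Affymetrix control probe sets only. Pgk1 had 3 ordinary probe sets, and each of the other 8 genes had 1. The 9 arrays each held amplified RNA from 1 pool of dendrites of Sprague-Dawley rats, from neurons taken at embryonic day 19 and cultured for 14 days. Each of the sizes 100, 200 and 400 dendrites had 3 arrays. Dendrites of many cells were combined in a pool. By the study's own account axons could not be told from dendrites by shape, so a pool may hold some axons. The study also allows that RNA of cell bodies may be present. The signal of a probe set is a log2 value, on which a difference of 1 is a 2-fold difference.

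Glycolysis splits glucose into pyruvate in the cytosol and yields ATP without oxygen. Phosphofructokinase commits the sugar to the pathway, aldolase cleaves it, and Gapdh, Pgk1, Pgam1 and enolase carry the fragments on to phosphoenolpyruvate. Lactate dehydrogenase then converts pyruvate and lactate into each other. Several steps have isozymes with different homes in the brain: Aldoc is a known astrocyte marker beside the widely expressed Aldoa, Eno2 is the neuron-specific enolase beside the widely expressed Eno1, and Ldhb and Ldha are the subunits that prevail in heart and in skeletal muscle.

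Arrays had medians of 7.46 to 7.53, and each correlated with the others at a mean r between 0.749 and 0.839. The values of 0.749 for replicate 1 of the 400-dendrite pools and 0.777 for replicate 1 of the 100-dendrite pools were below those of the other 7 arrays (0.809 or more). Several, but not all, of the differences that rest on these arrays are also given without them. Pyramidal neurons, the cell type in the labels, were represented by the transcription factor Neurod2 at 13.60 ± 0.18 (SD, n = 9, percentile 99.9 of genes) and Nrgn, the calmodulin-binding neurogranin, at 12.18 ± 0.17 (99.4). The kinase Camk2a stood at the 26.3 percentile and Tbr1 at 1.39. Over 12 pyramidal neuron markers the median percentile was 76.6, and over 11 astrocyte markers it was 42.5. Markers of oligodendrocyte lineage (11 genes) had a median of 58.4, those of interneurons (10) 44.0, of endothelium (8) 42.5, of microglia (12) 33.2 and of fibroblasts with mural cells (10) 25.4. The endothelial von Willebrand factor Vwf was nonetheless at 12.89 ± 0.19 (percentile 99.8) and the endothelial Esam at 11.61 ± 0.29 (98.6). The part of endothelial RNA in the members' values was not tested. The arrays give no background calls, so it is not known which low signals were above background.

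Most of the enzymes gave a high signal, and Pgk1 and Eno1 did not. The percentile of a gene is the place of its median rank over the 9 arrays among 14217 genes. Signals depend on the affinity of each probe, so these are ranks of signal and not amounts of RNA. Of the 9 genes with ordinary probe sets, 7 were above the 50th percentile and 3, Ldhb, Pgam1 and Pfkp, above the 95th, with a median percentile of 87.1. In order, the signals were highest for Ldhb (percentile 99.2), Pgam1 (97.8), Pfkp (95.3) and Ldha (93.3), followed by Eno2 (87.1), Aldoc (77.1), Aldoa (71.0), Eno1 (38.4) and Pgk1 (15.8). Within arrays, Ldhb exceeded Pgam1 by 1.02 ± 0.53 log2 units, Ldha exceeded Eno2 by 0.87 ± 0.41 and Aldoa exceeded Eno1 by 0.96 ± 0.61 (SD, n = 9). The gaps between the other neighbours, Pgam1 and Pfkp, Pfkp and Ldha, Eno2 and Aldoc, Aldoc and Aldoa, and Eno1 and Pgk1, were smaller than the SD of the gap over arrays. That SD does not hold the difference in affinity between probe sets, so neither kind of gap settles which transcript was the more abundant.

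**Figure D1:**
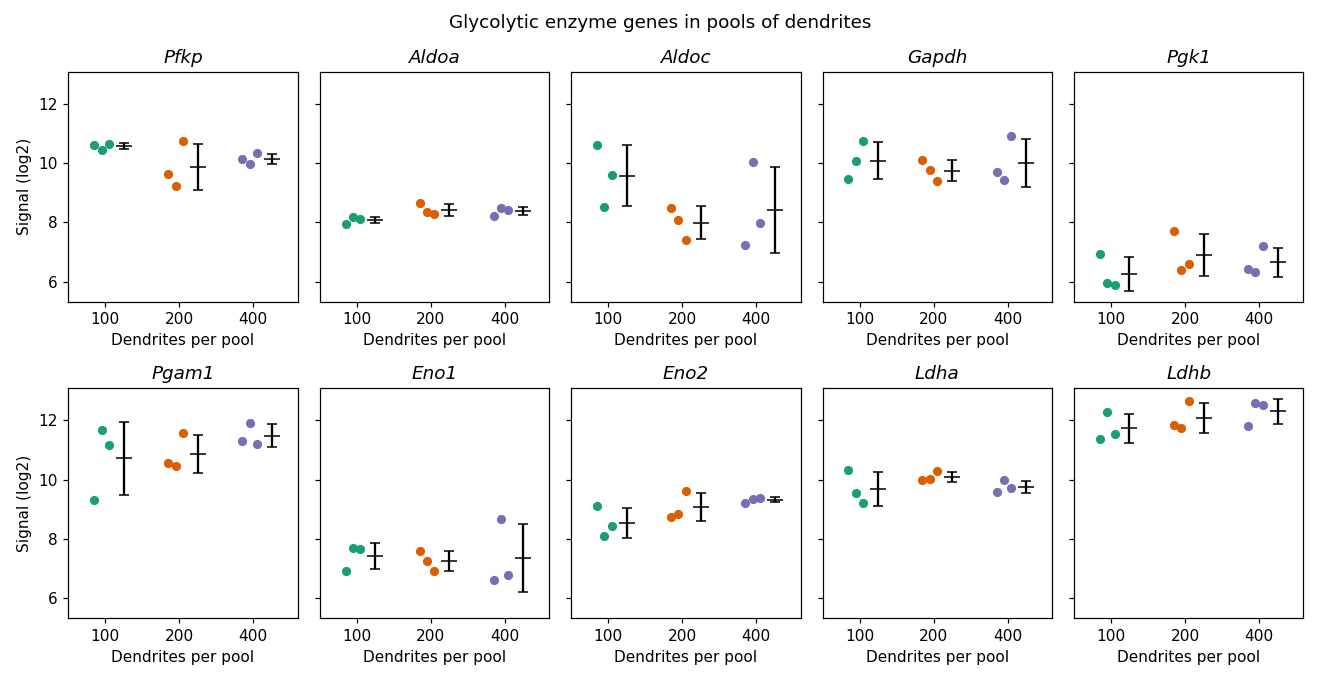
Log2 signal (vertical axes) of the 10 genes in pools of 100, 200 and 400 dendrites (horizontal axes), with Gapdh as the median of its 3 control probe sets. Each point is an array, with the mean and SD of its pool size drawn alongside (n = 3). Ldhb lay between 11.37 and 12.65 on every array, Aldoa spanned only 0.70 log2 units, and Aldoc spanned 3.38.

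Pfkp encodes the platelet-type phosphofructokinase, which is also made in brain. It was at 10.61, 10.46 and 10.65 in pools of 100 dendrites, 9.64, 9.24 and 10.75 in the 200-dendrite pools, and 10.13, 9.98 and 10.34 in the 400-dendrite pools. All 3 arrays of the largest pools were below all 3 of the smallest, whereas the 200-dendrite pools lay both below and above these. Its mean was 10.15 ± 0.18 in the 400-dendrite pools and 10.57 ± 0.10 in the 100-dendrite pools (SD, n = 3 each). The difference was -0.42, with a 95% interval of -1.33 to 0.48 (limma adjusted p = 0.999). Between 200 and 100 dendrites it was -0.70 (-1.60 to 0.21, unadjusted p = 0.12 by limma), and -1.13 to -0.38 without 1 array. The -1.13, without replicate 3 of the 200-dendrite pools, had an unadjusted p of 0.0142 by limma and did not pass after adjustment.

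The aldolases differed in how much they varied between arrays. Aldoa was at 7.96, 8.17 and 8.10 in the 100-dendrite pools, 8.66, 8.35 and 8.27 in the 200-dendrite pools, and 8.22, 8.49 and 8.42 in the 400-dendrite pools. Every array of the larger pools was thus above every array of the smallest. The 400-dendrite pools differed from the 100-dendrite pools by 0.30 (-0.41 to 1.01, limma adjusted p = 0.999). The 200-dendrite pools differed from them by 0.35 (-0.36 to 1.06, unadjusted p = 0.301 by limma). Such separation upwards was seen in 3.67% and 4.05% of all genes in these 2 comparisons. The SD of Aldoa over the 9 arrays was 0.21, at the 2.15 percentile of all genes. Aldoc was at 10.61, 8.53 and 9.60 in the 100-dendrite pools, 8.50, 8.07 and 7.39 in the 200-dendrite pools, and 7.23, 10.05 and 7.99 in the 400-dendrite pools. The 200-dendrite pools were below all the 100-dendrite pools, while the 400-dendrite pools held both the lowest and the second highest array. The SD of Aldoc was 1.18, at the 97.3 percentile, against a median of 0.55 over all genes.

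Between 200 and 100 dendrites Aldoc averaged 7.99 ± 0.56 in the 200-dendrite pools and 9.58 ± 1.04 in the 100-dendrite pools (SD, n = 3 each), a difference of -1.59 with a 95% interval of -3.14 to -0.05. With all arrays, no other member had an unadjusted limma p under 0.05 in a pairwise comparison. The limma p of Aldoc was 0.044 before adjustment and 1.0 after it, and 3.03% of all genes had an unadjusted p under 0.05 between 200 and 100 dendrites, against 2.41% between 400 and 100 and 2.3% between 400 and 200. With 1 array left out, the unadjusted limma p of Aldoc between 200 and 100 dendrites ran from 0.0139 to 0.179, the highest without replicate 1 of the 100-dendrite pools, where the difference was -1.08. Against 100 dendrites the 400-dendrite pools differed by -1.16 (-2.70 to 0.39). Without replicate 2 of the 400-dendrite pools the difference was -1.97 (unadjusted p = 0.00802 by limma, adjusted p = 1.0), and without replicate 1 of the 400-dendrite pools it was -0.56, or -0.64 without replicate 1 of the 100-dendrite pools. Without both of these replicates 1, which hold the lowest and the highest Aldoc, it was -0.04, and between 200 and 100 dendrites it was -1.08 (unadjusted p = 0.132 by limma).

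Markers of astrocytes differed among themselves in spread, and 7 of 11 had an SD over the 9 arrays above the all-gene median (0.20 to 1.74). The mean of 11 astrocyte markers was 7.5 to 8.13 in the 100-dendrite pools, 6.92 to 8.03 in the 200-dendrite pools and 7.15 to 8.0 in the 400-dendrite pools. The 3 arrays of lowest Aldoc, replicate 1 of the 400-dendrite, replicate 3 of the 200-dendrite and replicate 3 of the 400-dendrite pools, had the 3 lowest means of these markers, at 7.15, 6.92 and 7.20. On the array of highest Aldoc, replicate 1 of the 100-dendrite pools, the mean was 7.5, and 6 of the 11 markers were higher and 5 lower there than on the array of lowest Aldoc. S100b, the marker of highest rank, was at 9.77, 9.52 and 11.03 in the 100-dendrite pools, 10.22, 9.03 and 6.44 in the 200-dendrite pools, and 7.70, 10.75 and 7.55 in the 400-dendrite pools. Between 400 and 100 dendrites 5 of 11 markers were higher and 6 lower, and 0 passed. Between 200 and 100 dendrites it was also 5 higher and 6 lower. S100b stood at the 91.1 percentile, Slc1a3 at 88.5, Gja1 at 88.3 and Gfap at 86.0. The lowest markers were the water channel Aqp4 at 7.39 and the connexin Gjb6 at 1.84. Aqp4 was highest, at 7.05, on replicate 3 of the 200-dendrite pools, an array of low Aldoc. Of 10 interneuron markers 1 was higher and 9 were lower between 200 and 100 dendrites, where 50.1% of all genes were higher. The median difference was -0.59, with 0 passing. Their mean was 6.76 to 7.08 in the 200-dendrite pools and 7.35 to 7.66 in the 100-dendrite pools, without overlap. In the 400-dendrite pools it was 7.32 to 7.56, and 7 markers were higher and 3 lower there than in the 200-dendrite pools. Fewer cells of a type and less RNA per cell cannot be told apart in such pools, and the part of astrocyte or interneuron RNA in the values of Aldoc was not tested.

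**Figure D2:**
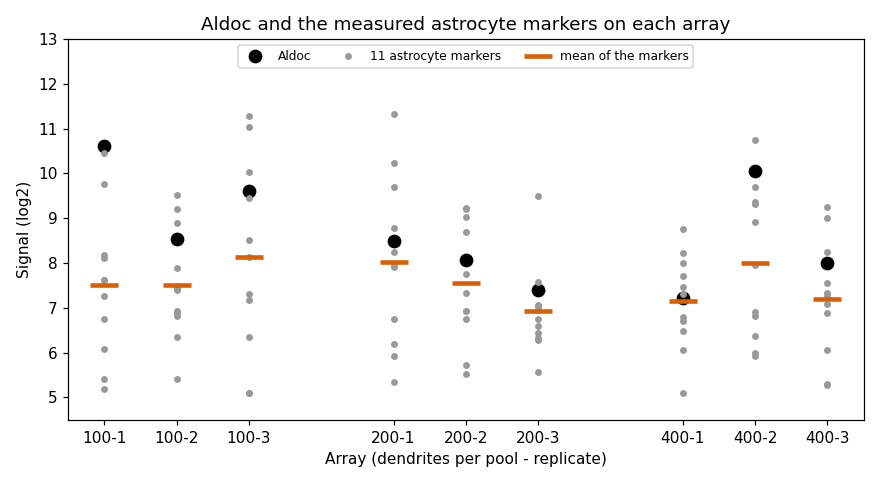
Log2 signal (vertical axis) of Aldoc (black), of each of the 11 measured astrocyte markers (grey) and of their mean (orange bar) on each array (horizontal axis, dendrites per pool and replicate). Aldoc was highest at 10.61 on replicate 1 of the 100-dendrite pools and lowest at 7.23 on replicate 1 of the 400-dendrite pools, where the means of the markers were 7.5 and 7.15.

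Gapdh, the most used reference transcript of expression studies, was read by control probe sets placed along the mRNA. The probe set at the 3′ end was at 11.81 on average over the 9 arrays, that in the middle at 9.23 and that at the 5′ end at 9.78. On each of the 9 arrays the 3′ probe set was above both others. It exceeded the 5′ probe set by 2.04 ± 0.68 log2 units (range 0.84 to 2.99) and the middle one by 2.58 ± 0.50 (1.91 to 3.41). The 3′ probe set was the steadiest, between 11.50 and 12.05, and the middle and 5′ probe sets were negatively correlated over the arrays (r = -0.75, n = 9, as a description). A further probe set, which names Gapdh together with Gapdhl10 and was outside the rule, was at 6.59 to 7.75, below the 3′ control by 4.83 ± 0.43. Taken as the median of its 3 control probe sets, Gapdh was at 9.46, 10.08 and 10.74 in the 100-dendrite pools, 10.10, 9.77 and 9.39 in the 200-dendrite pools, and 9.69, 9.43 and 10.93 in the 400-dendrite pools, so that the pool sizes overlapped. On each array this median was the higher of the middle and 5′ values, so it mixes 2 probe sets that were negatively correlated. With control probe sets included in the fit, the median differed by -0.08 between 400 and 100 dendrites (-1.13 to 0.97, limma adjusted p = 0.999). For the single probe sets the difference was -0.19 at the 3′ end, 0.44 in the middle and -0.03 at the 5′ end. Between 200 and 100 dendrites it was -0.21, 0.55 and -0.50 in the same order.

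The control probe sets of hexokinase, the enzyme that starts glycolysis, did not follow the same order along the transcript. Named Hk1 in the gene table, they averaged 7.94 at the 3′ end, 13.21 in the middle and 7.77 at the 5′ end. The middle one exceeded the 3′ one by 5.27 ± 0.44 (SD, n = 9). The 2 ordinary probe sets of Hk1 gave a median of 8.29 ± 0.49.

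Pgk1, phosphoglycerate kinase, makes the first ATP of the pathway, and its 3 probe sets disagreed. Probe set 1388318_at averaged 7.54, 1387361_s_at 6.44 and 1368906_at 6.22, at the 54.8, 21.2 and 11.9 percentiles of probe sets. Over the arrays the first and the third had r = 0.56, while the second had r = -0.03 with the first and -0.30 with the third (n = 9, as a description). Replicate 2 of the 400-dendrite pools was an example, where 1387361_s_at was at its highest, 7.92, and 1368906_at at its lowest, 5.35. As a median, Pgk1 was at 6.93, 5.95 and 5.89 in the 100-dendrite pools, 7.72, 6.40 and 6.59 in the 200-dendrite pools, and 6.41, 6.32 and 7.21 in the 400-dendrite pools. The pool sizes overlapped, with differences of 0.39 (-0.64 to 1.42) between 400 and 100 and 0.65 (-0.38 to 1.67) between 200 and 100 dendrites. Leaving out 1 array gave 0.11 to 0.73 for the first and 0.24 to 0.99 for the second. With the probe set of highest mean in place of the median, the difference between 400 and 100 dendrites turned to -0.55, and the percentile among genes was 43.5 in place of 15.8.

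**Figure D3:**
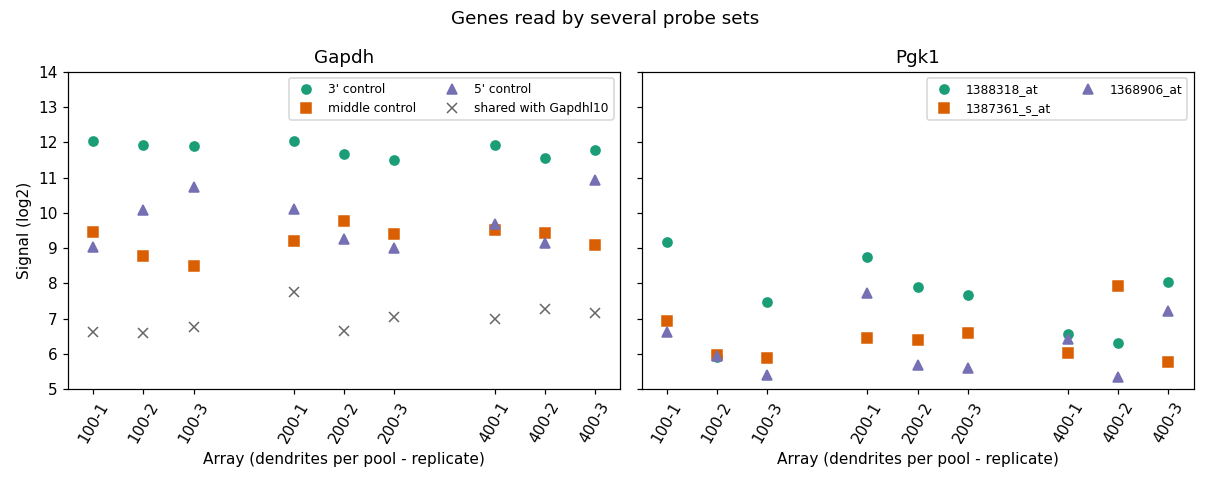
Log2 signal (vertical axes) of each probe set of Gapdh (left) and Pgk1 (right) on each array (horizontal axes, dendrites per pool and replicate). The 3′ control of Gapdh lay between 11.50 and 12.05 on all arrays, above its other probe sets, and the Pgk1 probe sets changed order between arrays.

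Pgam1, the brain-type phosphoglycerate mutase, was at 9.31, 11.67 and 11.17 in the 100-dendrite pools, 10.56, 10.45 and 11.59 in the 200-dendrite pools, and 11.31, 11.93 and 11.22 in the 400-dendrite pools. The low value of replicate 1 of the 100-dendrite pools stood alone. The difference between 400 and 100 dendrites was 0.77 (-0.50 to 2.03, limma adjusted p = 0.999), and 0.06 without that array.

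Eno1 and Eno2 encode enolase, which forms phosphoenolpyruvate. Eno1 was at 6.89, 7.68 and 7.66 in the 100-dendrite pools, 7.58, 7.23 and 6.91 in the 200-dendrite pools, and 6.60, 8.67 and 6.76 in the 400-dendrite pools. The 8.67 of replicate 2 of the 400-dendrite pools was its highest value. On that array 10 markers of fibroblasts and mural cells averaged 8.36, against 6.65 to 7.41 on the other 8 arrays. Lum (11.30) and Col1a1 (10.51) were high there. Of these markers only Pdgfrb (8.03) and Rgs5 (6.19) were below their means of 8.48 and 6.39. The astrocyte markers averaged 8.0 on the same array, and up to 8.13 on others. The part of any of these cells in the Eno1 value was not tested. Eno2 was at 9.09, 8.10 and 8.43 in the 100-dendrite pools, 8.75, 8.85 and 9.63 in the 200-dendrite pools, and 9.22, 9.33 and 9.39 in the 400-dendrite pools. All the largest pools were above all the smallest. Eno2 averaged 9.31 ± 0.09 in the 400-dendrite pools and 8.54 ± 0.50 in the 100-dendrite pools (SD, n = 3 each), a difference of 0.78 with a 95% interval of -0.08 to 1.63. It did not pass (unadjusted p = 0.0715 by limma, adjusted p = 0.999). Without 1 array it ran from 0.56 to 1.05, the largest without replicate 1 of the 100-dendrite pools (unadjusted p = 0.0261 by limma). Without replicates 1 of both the 400-dendrite and the 100-dendrite pools it was 1.10 (unadjusted p = 0.0309 by limma, adjusted p = 0.941). For Eno1 the difference between 400 and 100 dendrites, with all arrays, was -0.07 (-1.23 to 1.10).

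Of the lactate dehydrogenase subunits, Ldhb was at 11.37, 12.30 and 11.54 in the 100-dendrite pools, 11.84, 11.74 and 12.65 in the 200-dendrite pools, and 11.82, 12.59 and 12.53 in the 400-dendrite pools. Its means were 11.74 ± 0.49, 12.08 ± 0.50 and 12.31 ± 0.43 for 100, 200 and 400 dendrites (SD, n = 3 each). The arrays of the 3 pool sizes overlapped, and the fitted slope per doubling of dendrites was 0.29 (-0.14 to 0.72, limma adjusted p = 0.999). Ldha was at 10.33, 9.54 and 9.20 in the 100-dendrite pools, 9.99, 10.01 and 10.28 in the 200-dendrite pools, and 9.57, 9.99 and 9.70 in the 400-dendrite pools. The pool sizes overlapped here too, with a difference of 0.06 (-0.76 to 0.89) between 400 and 100 dendrites.

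Of the 9 genes in the fit, 0 passed in each of the 3 comparisons, as for all genes (0.0% of 14217 after adjustment). Between 400 and 100 dendrites 6 were higher and 3 lower, with a median difference of 0.30 log2 units against 0.02 over all genes, of which 51.5% were higher. Between 200 and 100 dendrites 6 were higher and 3 lower, with a median of 0.34 against 0.00 and 50.1% of all genes higher, and between 400 and 200 dendrites 6 were higher and 3 lower, with a median of 0.23 against 0.01 and 51.1% of all genes higher. These comparisons share arrays. Between 400 and 100 dendrites the arrays of 2 members, Aldoa and Eno2, lay wholly higher, as did 3.67% of all genes, and those of 1, Pfkp, wholly lower, as did 2.58%. Between 200 and 100 dendrites Aldoa lay wholly higher (4.05% of all genes) and Aldoc wholly lower (3.75%). Between 400 and 200 dendrites there was none in either direction (3.59% and 3.18% of all genes). With 9 genes, such counts are small, and the intervals were wide, reaching from -2.70 to 2.03 between 400 and 100 dendrites. Of all 31042 probe sets limma called 0 in each comparison, and at an unadjusted p under 0.05 there were 687 (2.21%) for 400 against 100, 891 (2.87%) for 200 against 100 and 634 (2.04%) for 400 against 200 dendrites.

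**Figure D4:**
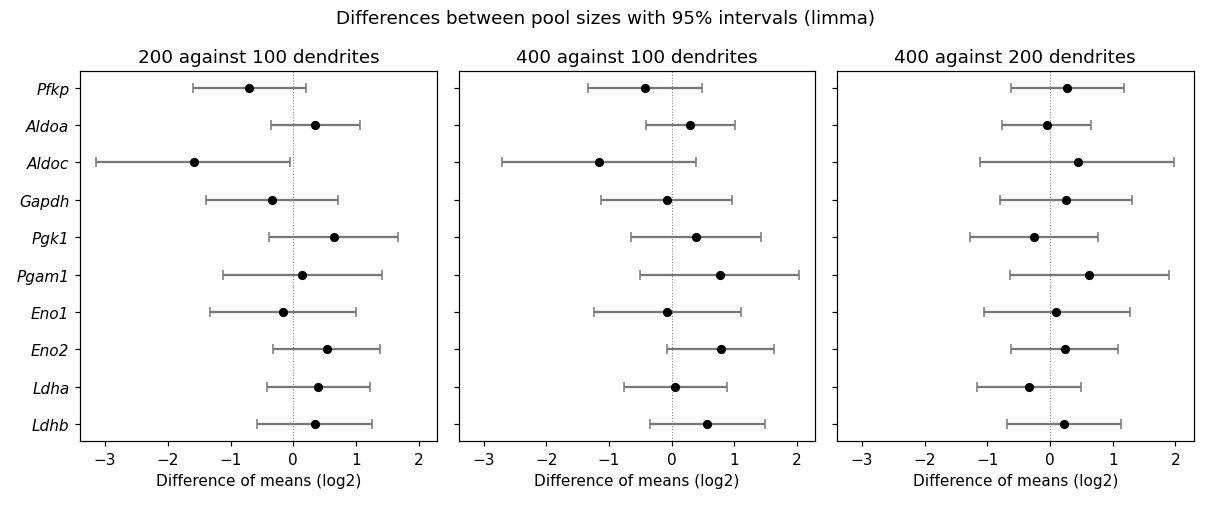
Differences of mean log2 signal between pool sizes (horizontal axes), with 95% intervals from limma, for the 10 genes (vertical axis); Gapdh is from the fit that includes control probe sets. All intervals include 0 but that of Aldoc between 200 and 100 dendrites, which runs from -3.14 to -0.05 before adjustment.

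Isozymes were compared by their difference within each array, in which probe affinity is a constant, so that only a change between arrays can be read. Aldoa minus Aldoc was -2.65, -0.35 and -1.51 in the 100-dendrite pools, 0.16, 0.29 and 0.87 in the 200-dendrite pools, and 1.0, -1.56 and 0.43 in the 400-dendrite pools. The 200-dendrite pools all lay above the 100-dendrite pools, by 1.94 on average, but over the 3 pool sizes the difference did not pass (exact permutation test over 280 partitions of the arrays, p = 0.121, where the smallest possible is 0.00357). Without 1 array the p ran from 0.0536 to 0.321, and the difference between 400 and 100 dendrites, 1.46 with all arrays, from 0.89 to 2.22. Eno1 minus Eno2 was -1.13 ± 0.94, -1.83 ± 0.79 and -1.97 ± 1.14 in pools of 100, 200 and 400 dendrites (SD, n = 3 each; exact permutation p = 0.496), and the pool sizes overlapped. Ldha minus Ldhb was -2.05 ± 0.90, -1.99 ± 0.34 and -2.56 ± 0.29 (exact permutation p = 0.475), again with overlap. The differences between 400 and 100 dendrites were -0.84 for the enolases and -0.51 for the lactate dehydrogenases, and without 1 array they ran from -1.50 to -0.49 and from -0.87 to -0.01. With 3 pairs tested, all adjusted p were 0.363 or more. By an exact permutation test, single comparisons of 3 arrays with 3 cannot go below a two-sided p of 0.10.

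**Figure D5:**
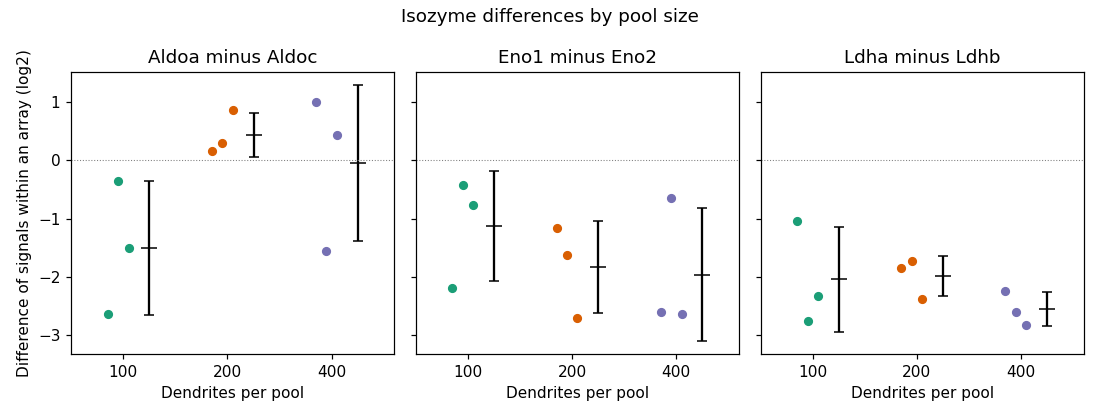
Difference of log2 signal within each array (vertical axis) for 3 pairs of isozymes in pools of 100, 200 and 400 dendrites (horizontal axes). Each point is an array, with the mean and SD of its pool size drawn alongside (n = 3). The place of a panel relative to 0 depends on probe affinity. For Aldoa minus Aldoc the 3 pools of 200 dendrites (0.16 to 0.87) lay above the 3 pools of 100 (-2.65 to -0.35), and in the other panels the pool sizes overlapped.

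No relation between isozymes of a step passed over the 9 arrays. For Aldoa and Aldoc Pearson's r was -0.29 and Spearman's rho -0.27 (exact permutation p = 0.449 and 0.493, n = 9), and r was 0.13 without the 2 arrays farthest from the median of Aldoa. For Ldha and Ldhb r was 0.12 and rho 0.07 (exact permutation p = 0.746 and 0.88), and r was -0.12 without the 2 farthest arrays. For Eno1 and Eno2 r was -0.31 and rho -0.48 (exact permutation p = 0.414 and 0.194), and -0.90 without the 2 farthest arrays, replicates 1 and 2 of the 400-dendrite pools. Leaving out replicate 2 alone gave -0.87 (exact permutation p = 0.00613, unadjusted and over 8 arrays). Of 3 relations 0 passed (adjusted p of 0.673 to 0.746). After each pool size's mean was subtracted, r was 0.34, 0.08 and -0.38 for the aldolases, the lactate dehydrogenases and the enolases. Each pool size alone has too few arrays for a correlation.

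Between all 36 pairs of the 9 genes, r ran from -0.64 for Aldoa and Pfkp to 0.77 for Pgam1 and Ldhb, with a median of 0.12 and 21 pairs (58.3%) above 0. Over all pairs of genes the median was 0.00 and 49.9% were above 0. These are descriptions over 9 arrays that share their normalization. The mean deviation of the 9 genes from their own means was highest on replicate 2 of the 400-dendrite pools, at 0.49, and lowest on replicate 2 of the 200-dendrite pools, at -0.29. Genes outside the lists whose pattern was most like this mean, which leaves out Gapdh, were Sod1, the cytosolic superoxide dismutase, at r = 0.98, Avl9 at 0.929, Psmc2, a proteasome ATPase, at 0.928, Commd10 at 0.919 and Pdcd5 at 0.913. They were picked as the highest r among all genes outside the lists, over 9 arrays. Sod1, Pdcd5 and Psmc2 stood at the 95.9, 94.9 and 90.6 percentiles of genes. Avl9 and Commd10 stood at 21.6 and 4.88, and whether such low signals were above background is not known.

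The members and lists were chosen with earlier results of these data known, so their levels are compared as a description only. Of 19 other glycolytic enzymes 13 were measured. Their median percentile was 40.6, against 87.1 for the 9 members, a difference that was not tested. Gapdhs, the testis form of Gapdh, was the highest of these at 9.17 ± 0.26 (SD, n = 9, percentile 87.8), and the muscle phosphofructokinase Pfkm stood at 84.6, Hk1 at 65.8, the isomerase Gpi at 65.6, Hk2 at 18.9, the liver phosphofructokinase Pfkl at 9.40 and the triose phosphate isomerase Tpi1 at 8.99. Pkm, the pyruvate kinase of brain, had no value in the gene table used here. Between 400 and 100 dendrites 6 were higher and 7 lower, and 0 passed. The muscle enolase Eno3 differed most, at 9.14 ± 1.11 in the 400-dendrite pools and 7.80 ± 0.85 in the 100-dendrite pools, a difference of 1.35 (0.10 to 2.59, unadjusted p = 0.0366 by limma, adjusted p = 0.999), or 0.73 without replicate 1 of the 400-dendrite pools.

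Among 11 transporters of glucose and lactate the median percentile was 54.1. The lactate exporter Slc16a3 was highest (8.91 ± 0.66, SD, n = 9, percentile 84.9), and its chaperone Bsg stood at 82.7. The glucose transporter Slc2a1 stood at 76.5, the neuronal glucose transporter Slc2a3 at 63.1 and the neuronal lactate transporter Slc16a7 at 1.71. Of the 11, 8 were higher and 3 lower between 400 and 100 dendrites and 0 passed. Slc16a1 differed most, with 7.04 ± 0.33 in the 400-dendrite pools and 7.88 ± 0.81 in the 100-dendrite pools (-0.84, -1.83 to 0.15, and -1.30 to -0.57 without 1 array).

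Of 13 genes for the entry of pyruvate into mitochondria, 3 were higher and 10 lower between 400 and 100 dendrites, with a median difference of -0.18, where 51.5% of all genes were higher, and 0 passed. Between 200 and 100 dendrites 8 were higher and 5 lower, with a median of 0.23. The kinase Pdk3 was highest (9.29 ± 0.36, SD, n = 9, percentile 90.3), with the pyruvate carrier subunit Mpc1 at the 89.9 percentile and its partner Mpc2 at 44.1. Pdhb, a subunit of pyruvate dehydrogenase, differed most, at 9.11 ± 0.65 in the 400-dendrite pools and 8.12 ± 0.29 in the 100-dendrite pools (0.99, 0.10 to 1.88, unadjusted p = 0.0317 by limma, adjusted p = 0.999). Without 1 array its difference ran from 0.72 to 1.35, the smallest without replicate 1 of the 400-dendrite pools.

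In the remaining lists 0 genes passed in any comparison. Between 400 and 100 dendrites 4 of 7 regulators of glycolysis were higher, with Pfkfb1 the highest in rank (percentile 73.1) and the transcription factor Hif1a differing most (0.88, -0.86 to 2.62, and 0.26 to 1.87 without 1 array). For 9 genes of the NADH shuttles it was 6, with the carrier Slc25a11 highest (10.24 ± 0.87, percentile 96.0) and Got1 differing most (-0.88, -1.92 to 0.17, and -1.47 to -0.52 without 1 array), for 6 genes of the pentose phosphate pathway 4, with Rpia highest (10.67 ± 0.37, percentile 96.4) and Taldo1 differing most (0.92, -0.32 to 2.16, but 0.23 without replicate 1 of the 400-dendrite pools), and for 5 genes of gluconeogenesis 3, with Pck1 first on both counts (percentile 86.4, difference 0.60, -0.55 to 1.75, but 0.21 without replicate 1 of the 400-dendrite pools). Of 9 genes of glycogen metabolism 5 were higher. Pgm1 was highest in rank (percentile 93.7). The brain glycogen phosphorylase Pygb was at 9.11 ± 0.84 in the 400-dendrite pools and 7.11 ± 1.81 in the 100-dendrite pools (SD, n = 3 each). The difference was 2.0 (0.36 to 3.64, unadjusted p = 0.0208 by limma, adjusted p = 0.999). It ran from 1.47 without replicate 1 of the 100-dendrite pools to 3.04 without replicate 3 of these pools.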

How the data were processed

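RNA of 9 pools of rat dendrites was amplified by the authors in several rounds and hybridised to Affymetrix rat genome arrays. The authors summarised the scans with RMA 2.0, per the labels, into the log2 signals per probe set used here. The median centring and scaling to the 10th to 90th percentile range named in the methods is not in them. RMA makes the distributions of the arrays alike, so a change shared by most genes cannot be seen.

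Probe sets were named from the platform's gene table, with 20758 symbols brought up to date by Entrez ID. The 57 control probe sets were left out, and the other 31042, or the medians per gene of 14217 genes, were fitted with limma 3.58.1 in R 4.3.3 on all 9 arrays with pool size as a factor, with two-sided p-values adjusted by Benjamini and Hochberg's method (threshold 0.05). For Gapdh the medians per gene also took in control probe sets. The fit of all probe sets with the controls, and that without the 2 arrays of lowest correlation with the others, were added after seeing the data. Of per-sample columns, 0 were left unused. Intervals are 95% intervals before adjustment. Exact permutation tests used Python 3.11.15 and numpy 2.4.6. Scripts were tested on simulated data. The members, lists and tests were chosen with earlier results of these data known. Named were all members, the highest-ranked gene and the gene of largest difference between 400 and 100 dendrites in each list, and the 5 genes most like the members; others were chosen after their values were seen. Replicates are biological per the labels, which do not name separate animals or cultures, so p-values measure the spread between these arrays. The number of arrays limits the precision. No sequences are shown.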

Additional observations from a re-analysis of the deposited data

How the results depend on the processing

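With another normalization (quantile, or centring and scaling as in the methods), with dim features removed, with trended and robust variance, by the methods' t-test, under the replicate block, with control probe sets, without any 1 array, or without replicate 1 of the 400-dendrite and of the 100-dendrite pools together (chosen after seeing the data), 0 probe sets and 0 genes passed in every comparison, as in the values reported. Of 480 recomputed differences of members, 0 passed and 20 turned direction, none from another scaling. Leaving out 1 array gave -0.13 to 0.07 for Aldoa, -0.38 to 1.03 for Aldoc, -0.56 to 0.47 for Eno1, -0.05 to 0.71 for Pfkp and -0.54 to 0.15 for Pgk1 between 400 and 200 dendrites, -0.56 to 0.62 for Pgam1 between 200 and 100, and -0.73 to 0.30 for Eno1 and -0.18 to 0.38 for Ldha between 400 and 100. Pgk1 between 400 and 100 turned to -0.55 with the probe set of highest mean. Without the pair of replicates 1 named above, the difference was 0.03 for Aldoa between 400 and 200, -0.56 for Pgam1 between 200 and 100 and 0.04 for Eno1 between 400 and 100, and 675 genes, against 342 with all arrays, had an unadjusted limma p under 0.05 between 400 and 100, as did 517 without replicate 1 of the 400-dendrite pools and 178 with dim genes removed, where fewer were tested. Before adjustment the methods' t-test put Pfkp and Aldoa below the 0.05 threshold between 400 and 100, and not Aldoc between 200 and 100. The cause was not tested. Correlations without 1 array ran from -0.53 to 0.11 for Aldoa and Aldoc, -0.87 to -0.23 for Eno1 and Eno2 and -0.18 to 0.51 for Ldha and Ldhb. Same-numbered arrays of different pool sizes had correlations of deviations of -0.204 to 0.087 (median 0.016). Those of different number had -0.189 to 0.219 (median -0.004). The labels do not say what the numbers mark, so a shared culture or day is not excluded. With the replicate block the isozyme differences gave p = 0.194, 0.472 and 0.333 for aldolase, enolase and lactate dehydrogenase (exact permutation tests). The block changed no call.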
